A study of Mus musculus with 8 samples.

Results

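The Ikaros family was followed in OT-I CD8+ T cells that had met antigen on different dendritic cells (DC). The family has 5 genes in the mouse: Ikzf1 (Ikaros), Ikzf2 (Helios), Ikzf3 (Aiolos), Ikzf4 (Eos) and Ikzf5 (Pegasus). They were taken by gene symbol from a table of 43432 genes, and each symbol matched 1 row. All 5 were measured in all 8 libraries and passed the filter on low values. The family was selected on the normalized counts of these libraries, with the differences of Ikzf3 between groups known, so its levels and differences are given as a description with no p-value. Members called in the fit over all genes are named below. Those calls draw on the values used for the selection and are no test of the family.

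Bulk RNA was sequenced from T cells of C57BL/6 background that carry OT-I, a transgene-encoded receptor that recognizes a peptide of ovalbumin. The cells had been kept for 72 hours in plates with antigen-bearing DC of a single subset, and divided T cells were sorted. The CD103 cultures (n = 3) had migratory CD103+ DC as partners. The CD8a cultures (n = 3) had lymph node resident CD8a+ DC, and the CD11b cultures (n = 2, numbered 2 and 3) had migratory CD11b+ DC. No group lacked DC, and the sources used here do not give the age and sex of the animals. Each comparison asks how the T cells of 2 of these groups differ, and the 3 comparisons share libraries. Whether separate cultures or animals lie behind the libraries of a group is not in the labels, so the spread between them may be technical.

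Ikaros family proteins are zinc finger transcription factors of blood cells. The fingers near their N-terminus bind DNA, and a pair of fingers near the C-terminus joins family members into dimers. Ikaros recruits the NuRD complex, which remodels and deacetylates nucleosomes, and the family is known for lymphocyte development and for restraining cytokine and proliferation genes in mature T cells. Helios and Eos are best known from regulatory T cells, and Aiolos from B cells and effector T cells. Pegasus is the most divergent member.

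The second finger is shown because it lies in the DNA-binding part, and because in human IKZF1 and IKZF3 it is the finger by which lenalidomide directs these proteins to the cereblon ubiquitin ligase. Each sequence is the coding strand of GRCm38 from the GENCODE M21 annotation, read 5′ to 3′ within 1 exon. Capitals mark the codons for the cysteines and histidines that hold the zinc ion.
Ikzf1: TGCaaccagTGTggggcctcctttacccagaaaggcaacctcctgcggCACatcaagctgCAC
Ikzf2: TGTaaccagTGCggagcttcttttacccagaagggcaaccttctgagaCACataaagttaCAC
Ikzf3: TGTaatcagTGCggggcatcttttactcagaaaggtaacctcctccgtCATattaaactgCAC
Ikzf4: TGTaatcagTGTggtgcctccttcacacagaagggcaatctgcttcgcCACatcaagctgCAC
Ikzf5: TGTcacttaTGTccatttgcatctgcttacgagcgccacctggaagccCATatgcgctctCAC
The stretches lie at chr11:11754024-11754086 on the plus strand (Ikzf1) and, on the minus strand, at chr1:69570581-69570643 (Ikzf2), chr11:98488940-98489002 (Ikzf3), chr10:128640229-128640291 (Ikzf4) and chr7:131392501-131392563 (Ikzf5).

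Ikzf1 to Ikzf4 encode the same residue at 21 of 21 codons of this finger, but with different codons. Between pairs of these 4 genes 6 to 11 codons were the same, and 76.2% to 84.1% of the 63 bases. Ikzf5 shared 5 of 21 residues with each of the others and 41.3% to 47.6% of the bases. The 4 cysteines and histidines are the same in every pair because the fingers were found by them. Part of each likeness was thus set by the search. Fingers of this spacing numbered 4 in each of Ikzf1 to Ikzf4 and 3 in Ikzf5. Over all annotated transcripts, the longest run of bases shared by any pair of genes was 32, between Ikzf2 and Ikzf4. Ikzf1 and Ikzf3 shared at most 26. The read length is not given in the sources used here, so whether reads were split between members was not tested.

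Depth was 16293042 to 21973391 recovered reads per library. Mitochondrially encoded transcripts took 6.69% to 7.72% of reads in CD103 cultures, 9.12% to 11.8% in CD8a cultures and 7.02% to 7.20% in CD11b cultures. The CD8a libraries were less alike than those of the other groups. Replicate 2 of that group correlated with the other two at r = 0.939 and 0.924 across genes, against 0.958 to 0.968 within CD103 cultures and 0.970 within CD11b cultures. Its 20 most abundant genes took 16.3% of reads. Without it, the log2 differences between CD103 and CD8a cultures were 0.13 for Ikzf1, -0.13 for Ikzf2, -0.63 for Ikzf3, 0.92 for Ikzf4 and -0.06 for Ikzf5, beside the values with all libraries given below.

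Ikzf3 was the member that differed most in both comparisons with CD103 cultures, except that Ikzf4 differed more from CD8a cultures once CD8a replicate 2 was left out. Aiolos, its product, is a transcription factor of B cell maturation and of effector T cells. In normalized read counts, which are reads divided by 1 size factor per library, Ikzf3 (ENSMUSG00000018168; chr11:98464902-98546031, minus strand) stood at 10396, 7619 and 9110 in CD103 libraries. It stood at 14198, 15320 and 13581 in CD8a libraries and at 15412 and 15340 in CD11b libraries. Every CD103 library lay below every library of the other groups, and the CD8a libraries lay just below the CD11b libraries. Group means were 9042 ± 1390, 14366 ± 882 and 15376 ± 50.5 (SD, n = 3, 3 and 2). In bulk RNA, fewer cells of a type and less RNA per cell cannot be told apart.

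On the log2(normalized count + 1) scale, Ikzf3 differed by -0.68 (SE 0.11) between CD103 and CD8a cultures and by -0.78 (SE 0.12) between CD103 and CD11b cultures. Between CD8a and CD11b cultures the difference was -0.10 (SE 0.12), smaller than its error. In the authors' deposited table the log2 fold changes of Ikzf3 were -0.67, -0.77 and -0.10. Leaving out 1 library at a time gave -0.78 to -0.56 for the first difference and -0.88 to -0.66 for the second. Without CD8a replicate 2 the first was -0.63.

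In limma-trend over all 18971 genes tested (Benjamini-Hochberg adjusted p under 0.05), 1 of the 5 members, Ikzf3, was called between CD103 and CD8a cultures, where 1.44% of all genes were called (0.891% higher and 0.548% lower with CD103+ DC). Between CD103 and CD11b cultures it was again 1 of 5, Ikzf3, where 0.332% of all genes were called (0.132% higher and 0.2% lower with CD103+ DC). Between CD8a and CD11b cultures limma-trend, edgeR and DESeq2 each called 0 of 5, where limma-trend called 1.97% of all genes (1.07% higher and 0.901% lower with CD8a+ DC). At an unadjusted p under 0.05 in limma-trend were 1, 2 and 0 of 5 members in the 3 comparisons, against 13.2%, 9.32% and 13.6% of all genes. Since the family was chosen knowing these contrasts, the counts and the calls of members are a description and not a test.

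The call of Ikzf3 did not survive every left-out library. Between CD103 and CD8a cultures it was lost without CD103 replicate 2 or 3, at differences of -0.56 and -0.69. It was also lost without CD11b replicate 2 or 3, which left the difference at -0.68. Between CD103 and CD11b cultures it was lost without any 1 of the CD103 libraries, at -0.88, -0.66 and -0.79 for replicates 1, 2 and 3. There it was lost without CD11b replicate 2 or 3 as well, at -0.77 and -0.78. The fits without the call found 0 to 50 genes in all.

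**Figure D1:**
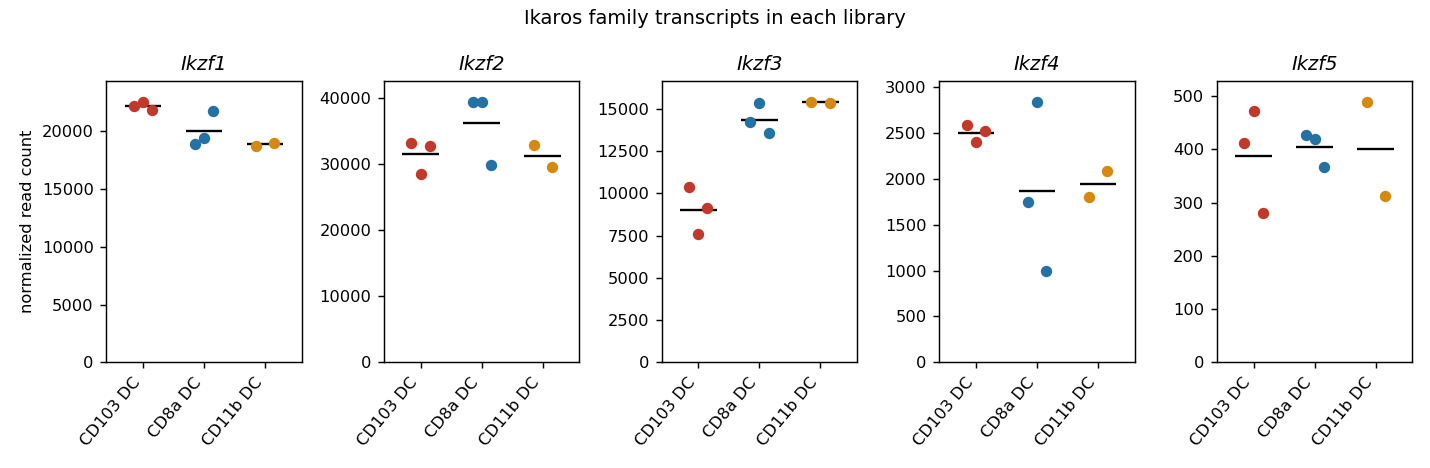
Normalized read count (vertical axis, from 0) of each family member in each library, by DC partner (horizontal axis); points are libraries and bars are group means. The 3 CD103 libraries lie below all others for Ikzf3 and above all others for Ikzf1, and the CD8a libraries are spread widest for Ikzf4.

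Ikzf1, the founding member, is needed for lymphoid development and sets signalling thresholds in mature T cells. Ikzf1 (ENSMUSG00000018654; chr11:11685003-11772926, plus strand) stood at 22196, 22518 and 21854 normalized counts in CD103 libraries. The CD8a libraries had 18853, 19387 and 21693, and the CD11b libraries 18734 and 18949. The CD103 libraries were the 3 highest and did not overlap with the others, although CD8a replicate 3 came close to them. The differences were small. They were 0.15 (SE 0.084) between CD103 and CD8a cultures, 0.24 (SE 0.094) between CD103 and CD11b cultures and 0.08 (SE 0.094) between CD8a and CD11b cultures.

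Among all genes tested, 5.67% had 3 CD103 libraries that did not overlap with the other 5 libraries, 2.5% lower and 3.16% higher. Of the 5 members 1 was lower in this way, Ikzf3, and 1 was higher, Ikzf1. For CD103 against CD8a, 16.5% of all genes did not overlap (8.77% higher and 7.72% lower in the first), among them Ikzf1 (higher) and Ikzf3 (lower). For CD103 against CD11b it was 28.1% (14% higher and 14.2% lower), among them Ikzf1 and Ikzf4 (higher) and Ikzf3 (lower). For CD8a against CD11b it was 27.9% (12.8% higher and 15.1% lower), among them Ikzf3 (lower).

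Helios, the product of Ikzf2, is a factor of regulatory T cells that activated T cells can also express. Ikzf2 (ENSMUSG00000025997; chr1:69531214-69687245, minus strand) stood at 33151, 28498 and 32748 normalized counts in CD103 libraries. It stood at 39380, 39305 and 29792 in CD8a libraries and at 32821 and 29566 in CD11b libraries. The CD8a replicates 1 and 2 were the highest libraries of all, while replicate 3 lay within the range of both other groups. The differences were -0.19 (SE 0.11), 0.01 (SE 0.12) and 0.20 (SE 0.12), in the order CD103 against CD8a, CD103 against CD11b and CD8a against CD11b. Between CD103 and CD8a cultures the difference ran from -0.33 (SE 0.079, without CD8a replicate 3) to -0.12 (SE 0.126, without CD103 replicate 2) over the left-out libraries. Ikzf2 was called in the first of these fits, where 480 genes were called in all.

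Eos, the product of Ikzf4, acts as a corepressor with FOXP3 in regulatory T cells. Ikzf4 (ENSMUSG00000002578; chr10:128630843-128645991, minus strand) stood at 2580, 2401 and 2514 normalized counts in CD103 libraries. The CD8a libraries had 1749, 2834 and 995.9, and the CD11b libraries 1803 and 2085. Within CD8a cultures the highest library was 2.85-fold above the lowest, against 1.07-fold in CD103 cultures. That spread (SD on the log2 scale) was at percentile 93.7 of 9570 genes of at least 100 counts in CD8a cultures and at percentile 7.03 in CD103 cultures.

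The differences of Ikzf4 were 0.55 (SE 0.26) between CD103 and CD8a cultures and 0.37 (SE 0.30) between CD103 and CD11b cultures. Between CD8a and CD11b cultures the difference was -0.19 (SE 0.30). Single CD8a libraries set the first and the last of these. Without replicate 3 the first was 0.17 and the last 0.20, with the opposite sign. Without replicate 2 the first was 0.92, which was then called among 290 genes in all, and the last was -0.55. In the authors' deposited table the log2 fold changes of Ikzf4 were 0.43, 0.36 and -0.06 in the same order. The first and the last of them were nearer 0 than the differences given here.

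Ikzf5 was the least abundant member. Pegasus, its product, recognizes DNA sites unlike those of the other members. Ikzf5 (ENSMUSG00000040167; chr7:131388652-131410521, minus strand) had 412.3, 471.7 and 279.7 normalized counts in CD103 libraries, 427.9, 419.8 and 367.2 in CD8a libraries and 489.2 and 313.2 in CD11b libraries. All 3 groups overlapped. The differences were -0.09 (SE 0.26), -0.05 (SE 0.29) and 0.05 (SE 0.29) in the same order as for Ikzf2, each smaller than its error.

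**Figure D2:**
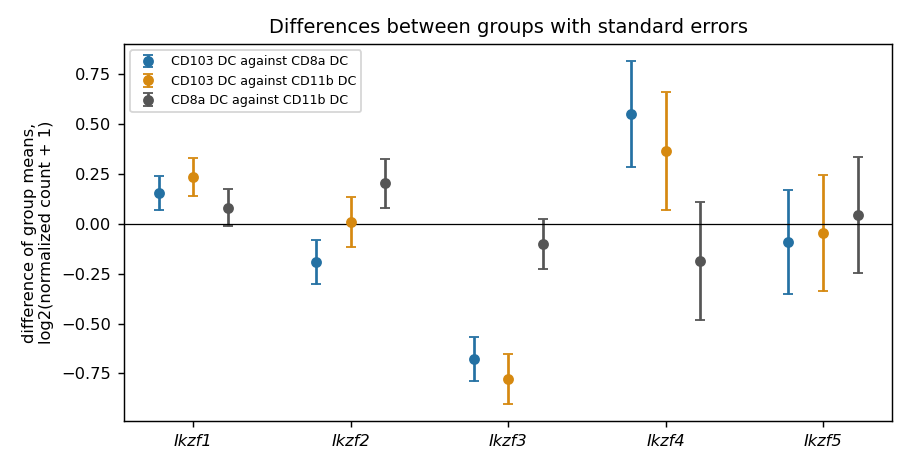
Differences of group means of log2(normalized count + 1) (vertical axis) for the 5 members (horizontal axis) in the 3 comparisons, with standard errors from 1 fit of all genes. Ikzf3 lies at -0.68 and -0.78 in the comparisons with CD103 cultures, and the bars of Ikzf4 and Ikzf5 are the longest.

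Levels of different members were compared only per length, in CPM (reads scaled to the library total) per kilobase. The result turned on which length was used. The annotated exons of Ikzf3 together span 8754 bases, 2.39 times its principal transcript of 3658 bases. For the other 4 genes this ratio was 1.12 to 1.29. The table does not say which exons its reads fell in.

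Per kilobase of all annotated exons, Ikzf1 was highest in each group (206 ± 6.53, 178 ± 15.2 and 174 ± 1.73 CPM per kilobase in CD103, CD8a and CD11b cultures). Ikzf2 followed at 145 ± 9.33, 160 ± 23.3 and 143 ± 10.3. Next was Ikzf3 at 55.3 ± 7.58, 84.6 ± 3.46 and 93.8 ± 0.131. In CD8a cultures the libraries of Ikzf1 and Ikzf2 overlapped. Ikzf4 followed at 22.4 ± 0.412, 15.9 ± 7.55 and 17.3 ± 1.81. Ikzf5 was lowest at 3.65 ± 0.968, 3.65 ± 0.285 and 3.74 ± 1.15. Averaged over the 8 libraries, Ikzf1, Ikzf2 and Ikzf3 were at percentiles 99.3, 99.1 and 97.5 of 18789 genes with a length, Ikzf4 at 86.1 and Ikzf5 at 57.5.

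Per kilobase of principal transcript the order of the leading 3 members changed with the DC partner. In CD103 cultures Ikzf1 (231 ± 7.31) and Ikzf2 (182 ± 11.7) stood above Ikzf3 (132 ± 18.1), with no overlap between neighbours. In CD8a cultures Ikzf1 (199.6 ± 17.0), Ikzf2 (201 ± 29.2) and Ikzf3 (202 ± 8.28) did not differ beyond their spread. In CD11b cultures Ikzf3 (224 ± 0.314) stood above Ikzf1 (195 ± 1.94) and Ikzf2 (179.5 ± 12.9). Ikzf4 and Ikzf5 were the lowest under both lengths.

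The ratio of Ikzf3 to Ikzf1 within a library did not overlap between groups. Per kilobase of exon it was 0.309, 0.223 and 0.275 in CD103 libraries, 0.497, 0.521 and 0.413 in CD8a libraries and 0.543 and 0.534 in CD11b libraries. Both genes entered the ratio with the differences described above, so it holds no separate observation. Of the summed CPM per kilobase of exon of the family, Ikzf3 gave 12.8% ± 1.43, 19.1% ± 0.304 and 21.7% ± 0.374 in CD103, CD8a and CD11b cultures. With principal transcripts these shares were 22.9% ± 2.25, 32.3% ± 0.482 and 36.0% ± 0.565.

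**Figure D3:**
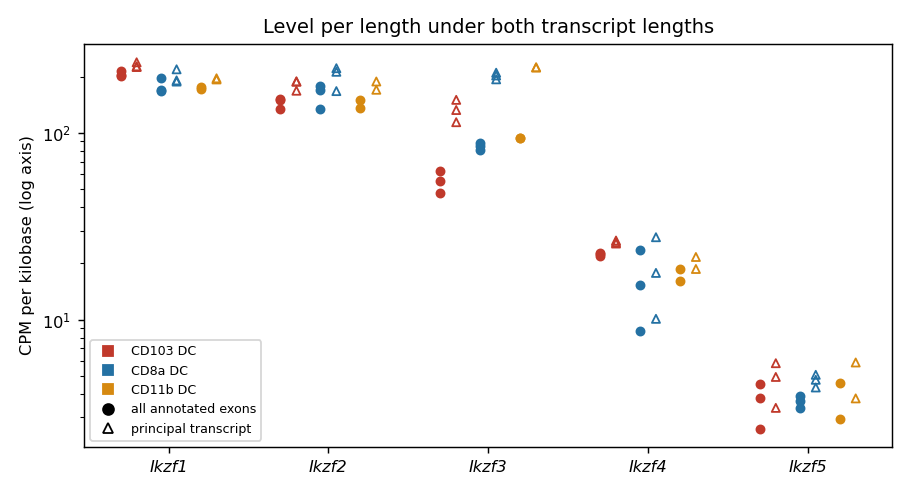
CPM per kilobase (log axis) of each member (horizontal axis) in each library, with all annotated exons (filled circles) or the principal transcript (open triangles) as length, coloured by DC partner. Open triangles of Ikzf3 lie far above its circles, while the pairs of the other members lie close together.

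Other cell types were checked by marker lists, as summed CPM. The 10 T cell identity genes summed to 6841 to 6919 CPM in CD103 cultures, 5678 to 6602 in CD8a cultures and 6515 to 7469 in CD11b cultures, and all 10 were detected in each. The 20 DC genes summed to 412 to 462, 127 to 262 and 361 to 504 CPM, with Cd209a at 0 in all libraries and Itgax at 0 in CD103 libraries. Of 18 DC genes tested by limma-trend, 5 were called higher in CD103 than in CD8a cultures and 3 lower in CD8a than in CD11b cultures. In these comparisons 1.44% and 1.97% of all genes were called. Between CD103 and CD11b cultures the summed levels hid opposite differences. Named after their values were seen, H2-Aa, an MHC class II chain, was called higher in CD103 cultures (21.2 ± 5.63 against 2.82 ± 0.334 CPM) and Sirpa lower (0.0347 ± 0.0601 against 2.78 ± 1.3002 CPM). Both calls were lost without any 1 of the CD103 or CD11b libraries. That of Sirpa was also lost without CD8a replicate 1, by edgeR and by limma-voom. It was lost as well with a pseudocount of 0.5, with a minimum mean normalized count of 10 and with replicate number in the fit. Ccl22, a chemokine of mature DC and a large part of the sum, stood at 152 ± 14.6, 60.03 ± 27.3 and 268 ± 66.6 CPM in CD103, CD8a and CD11b cultures. The part of DC transcripts in the results was not tested. The 12 B cell genes summed to 1040 to 1165, 990 to 1293 and 1188 to 1232 CPM, most of it Ighm. Pax5, the factor that commits cells to the B lineage, was at 0 in all libraries. Other members of the list went different ways. Of 9 tested, limma-trend called Ighd and Cd22 higher in CD103 than in CD8a cultures and Ighd higher in CD103 than in CD11b cultures. Over all genes 1.44% and 0.332% were called in these comparisons. Both genes were named after their values were seen. Ighd, the heavy chain of IgD, stood at 98.1 ± 5.35, 46.5 ± 9.29 and 39.3 ± 1.61 CPM in CD103, CD8a and CD11b cultures. Cd22, an inhibitory B cell receptor, stood at 5.40 ± 3.57, 0.0348 ± 0.0603 and 0.200 ± 0.216 CPM, and Cd79b, a chain of the B cell receptor, at 7.93 ± 1.73, 14.6 ± 6.73 and 17.1 ± 1.57 CPM. The calls of Ighd were lost without any 1 of the CD103 or CD11b libraries. That of Cd22 was lost without CD103 replicate 2 or 3 or either CD11b library, and by limma-voom. The part of B cell transcripts in the results was not tested.

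The sum of the 4 genes of CD4 and regulatory T cells was higher in CD103 cultures, at 29.1 to 32.9 CPM. It was 7.42 to 13.5 in CD8a cultures and 10.3 to 12.7 in CD11b cultures. Cd4 overlapped between CD103 and CD8a libraries, while Foxp3, Zbtb7b and Cd40lg did not. In limma-trend 1 of the 4, Zbtb7b, was called higher in CD103 than in CD8a cultures, where 1.44% of all genes were called. Between CD103 and CD11b cultures 0 of 4 were called, against 0.332% of all genes. Foxp3, the defining factor of regulatory T cells and a partner of Eos, stood at 4.66 to 6.997 CPM in CD103 libraries. It stood at 0.370 to 3.31 CPM in CD8a libraries and 1.002 to 1.88 CPM in CD11b libraries. Ikzf4 was also above its CD11b levels in all CD103 libraries. Within CD8a cultures the markers went different ways. Replicate 2 had the highest Ikzf4 of all libraries and the lowest marker sum (7.42 CPM). Replicate 3 had the lowest Ikzf4 and the highest marker sum of the group (13.5 CPM). In replicates 1, 2 and 3 Foxp3 stood at 3.31, 1.41 and 0.370 CPM and Cd4 at 0.859, 2.41 and 7.27 CPM. Replicate 3 thus had the lowest Foxp3 of the group as well as the lowest Ikzf4. The part of these markers in the results was not tested. The 7 NK cell genes summed to 2.81 to 8.97 CPM and the 6 macrophage and monocyte genes to 0 to 1.04 CPM over all libraries.

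Genes that overlap or adjoin the members were examined because the strand setting of the counting is not given in the sources used here. Reads from a gene and from an overlapping gene on the opposite strand therefore cannot be told apart. Ikzf5 overlaps Pstk, a kinase of selenocysteine synthesis on the opposite strand, which had 236.7 ± 54.9, 320.8 ± 3.18 and 347 ± 143 normalized counts in CD103, CD8a and CD11b cultures. Ikzf2 overlaps the antisense transcript Gm29114 (467.8 ± 189, 508.8 ± 59.4 and 315.9 ± 27.2) and the sense intronic transcripts Gm28112 and Gm29112. Ikzf1 overlaps the antisense transcript Gm12000 (190.1 ± 30.2, 235.4 ± 93.0 and 315.9 ± 82.9). The overlapping transcripts of Ikzf1 and Ikzf2 had few counts beside those of the members themselves.

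Ikzf3 overlaps 1 other gene of the table, the small nuclear RNA Gm25106, at 0.900 to 34.5 normalized counts. Its nearest expressed neighbours are Grb7, an adaptor of receptor tyrosine kinases, at 9529 bases, and Zpbp2, a sperm protein gene, at 5066 bases. Neither passed the test in any comparison (limma-trend). Grb7 differed by -0.83 (SE 0.47, adjusted p = 0.491) between CD103 and CD8a cultures and Zpbp2 by -0.38 (SE 0.46, adjusted p = 0.786).

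The neighbour of Ikzf1 behaved otherwise. Fignl1, an ATPase of DNA repair 14505 bases away on the opposite strand, stood at 934.3 ± 80.0, 1660 ± 341 and 799.7 ± 102 normalized counts. It was lower in CD103 than in CD8a cultures by limma-trend (log2 difference -0.81, SE 0.18, adjusted p = 0.0381). It was higher in CD8a than in CD11b cultures (1.04, SE 0.20, adjusted p = 0.0146). The first call was lost without any 1 library other than CD8a replicate 1, at -0.85 to -0.66 (adjusted p up to 0.199, limma-trend). It was also lost with scaling to library totals, with no filter on low values and with only the libraries of the 2 groups (adjusted p = 0.0544, 0.0584 and 0.0529, limma-trend). The second was lost without CD11b replicate 2 or 3, at 1.17 and 0.91, and with only the libraries of the 2 groups (adjusted p = 0.0704, limma-trend). Ikzf1 itself differed by 0.15 and 0.08 in these comparisons. Among the neighbours of the other members, Rps26 and Suox beside Ikzf4, Acadsb 80 bases from Ikzf5, and Bard1, the nearest expressed gene after Ikzf2, passed in no comparison (limma-trend), with adjusted p-values from 0.0507 upward.

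Genes whose levels followed each member most closely were found by Pearson's r of log2(normalized count + 1) across the 8 libraries, among 8986 genes. These 8 points share their libraries, depths and 3 groups, and the r values are a description. For Ikzf3 the leading genes were Enpp4 (r = 0.970), an ectoenzyme, Cd38 (0.951), an NAD-degrading surface enzyme, and Zdhhc20 (0.948), a palmitoyltransferase. Cd38 stood at 15.04 ± 1.496 CPM in CD103 cultures, 26.8 ± 1.95 in CD8a cultures and 34.3 ± 8.73 in CD11b cultures. Enpp4 stood at 9.86 ± 4.80, 23.4 ± 3.31 and 28.6 ± 7.38 CPM and Zdhhc20 at 161 ± 8.96, 202 ± 19.3 and 237 ± 8.09 CPM. For all 3 genes each CD103 library lay below every other library, as for 2.5% of all genes tested. They were picked for following Ikzf3 in these same libraries, so this largely restates the order of Ikzf3.

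For Ikzf1 the leading genes were Atf6 (r = 0.980), a sensor of endoplasmic reticulum stress, Acsl3 (0.975), an acyl-CoA synthetase, and Lcp1 (0.965), an actin-bundling protein of leukocytes. Those of Ikzf2 were Neurl3 (0.970), Cux1 (0.962), a homeodomain factor, and B4galt1 (0.959), a galactosyltransferase. In CD8a cultures replicate 3 was the lowest for all 3, as for Ikzf2, with Cux1 at 367, 359 and 196 CPM in that group. Those of Ikzf4 were Ankrd16 (0.961), Vipr1 (0.950), a receptor for vasoactive intestinal peptide, and Zfp507 (0.938). Ikzf5 had lower values, led by Kif13b (0.929), a kinesin, Cep76 (0.918), a centrosomal protein, and Trbd1 (0.916), a T cell receptor segment.

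**Figure D4:**
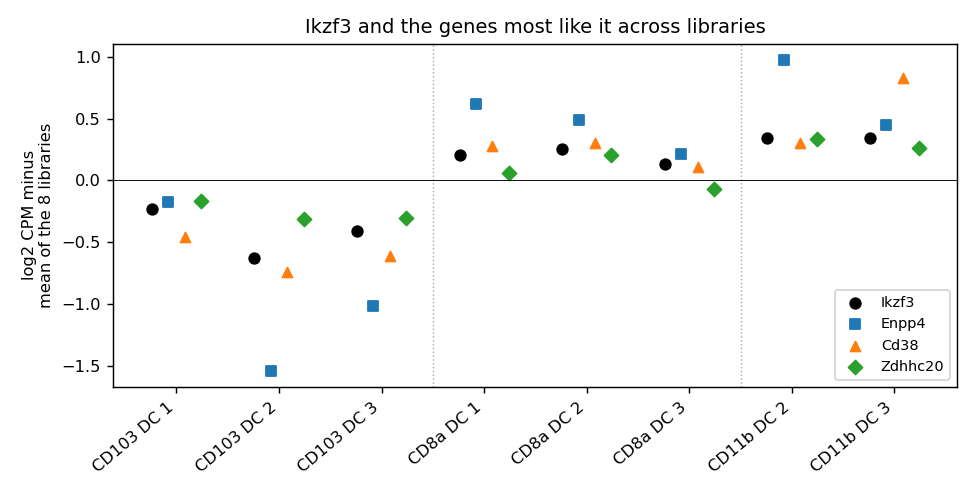
log2 CPM minus its mean over the 8 libraries (vertical axis) for Ikzf3 and the 3 genes with the highest r to it, in each library (horizontal axis, groups divided by dotted lines). All 4 genes lie below 0 in the 3 CD103 libraries and above 0 in the other 5 libraries, except Zdhhc20 in CD8a replicate 3.

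Genes linked to the family, with reported targets and other zinc finger factors, were listed by role. They were 105 in all, of which 99 passed the filter on low values. Of the NuRD complex 14 of 14 were tested and of other chromatin partners 19 of 19. Of the cereblon ligase, with kinases and phosphatases that act on the family or upstream of it, 13 of 13 were tested. The ligase is listed for its link to human IKZF1 and IKZF3 through lenalidomide. Whether it acts on the family in these cells was not tested. In each comparison limma-trend called 0 genes of each of these lists, and so did edgeR. The background of calls over all genes was 1.44%, 0.332% and 1.97%. At an unadjusted p under 0.05 there were 2, 4 and 3 NuRD genes in the comparisons CD103 against CD8a, CD103 against CD11b and CD8a against CD11b, where 13.2%, 9.32% and 13.6% of all genes were. For the other chromatin partners these numbers were 1, 3 and 2, and for the ligase, kinases and phosphatases 0, 0 and 2. DESeq2 called 0, 1 and 1 NuRD genes, 1, 1 and 0 other partners, and 0, 0 and 1 of the ligase list, and over all genes 781, 336 and 906.

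Chd4, the NuRD gene with the highest mean over the 8 libraries, encodes the remodelling ATPase of the complex. It stood at 883 ± 79.3, 704 ± 59.6 and 633 ± 8.34 CPM, with a log2 difference of 0.47 (SE 0.11, limma-trend adjusted p = 0.108) between CD103 and CD11b cultures. Chd3, a related ATPase, stood at 649 ± 62.1, 511 ± 63.6 and 699.8 ± 15.5 CPM, above Chd4 in CD11b cultures. Ncor1, a corepressor that recruits histone deacetylase, stood at 751 ± 16.9, 677 ± 29.8 and 826 ± 1.33 CPM. Lck, the kinase that starts T cell receptor signalling, stood at 457 ± 11.7, 442 ± 11.98 and 481 ± 9.16 CPM. Medians of the log2 differences were -0.07, 0.11 and 0.23 for NuRD genes, 0.01, 0.14 and 0.17 for the other partners and -0.08, -0.01 and 0.10 for the ligase list. Over all genes tested they were 0.02, -0.00 and -0.04.

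Of 31 genes reported as targets of the family in lymphocytes, 26 were tested. In the order CD103 against CD8a, CD103 against CD11b and CD8a against CD11b, limma-trend called 3, 1 and 4 of them. Over all genes it called 1.44%, 0.332% and 1.97%. At an unadjusted p under 0.05 (limma-trend) were 10, 6 and 11, against 13.2%, 9.32% and 13.6% of all genes. DESeq2 called 6, 2 and 6. The list was chosen with earlier results of these data known, and no set test was run. The reports come from several cell types, so no single direction is expected of the list, and no gene of it is a shown target in these cells. Between CD103 and CD8a cultures 3 rose with CD103+ DC and 0 fell: Ccnd2, Il6st and Il2ra (list median 0.33, against 0.02 over all genes). Ccnd2, a D-type cyclin, stood at 474, 437 and 481 CPM in CD103 libraries against 294, 241 and 234 in CD8a libraries (log2 difference 0.80, SE 0.11, adjusted p = 0.00405, limma-trend). Il2ra, the inducible alpha chain of the interleukin 2 receptor, stood at 51.7, 26.4 and 29.9 against 7.37, 6.41 and 17.4 CPM (1.81, SE 0.35, adjusted p = 0.0232, limma-trend). Neither gene overlapped between these groups. Il6st, the shared receptor chain of the interleukin 6 family, stood at 563 ± 49.99 against 370 ± 21.9 CPM (0.55, SE 0.10, adjusted p = 0.0222, limma-trend).

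Between CD103 and CD11b cultures 1 target gene fell, Gzmb, and 0 rose (median -0.07, against -0.00 over all genes). Gzmb, a cytotoxic granule protease, stood at 9.29, 18.2 and 11.3 CPM against 76.2 and 55.9 CPM, without overlap (log2 difference -2.40, SE 0.42, adjusted p = 0.0253, limma-trend). Between CD8a and CD11b cultures 4 fell and 0 rose (median -0.30, against -0.04). They were Ccnd2 (-0.70, SE 0.12, adjusted p = 0.00965), Il2ra (-2.10, SE 0.39, adjusted p = 0.0128), Il7r (-0.78, SE 0.16, adjusted p = 0.0233) and Gzmb (-1.76, SE 0.42, adjusted p = 0.0474), all by limma-trend. Il7r, the interleukin 7 receptor chain of naive and memory cells, stood at 120 ± 24.3 CPM in CD8a cultures and 211 ± 26.2 in CD11b cultures. A link between these genes and Ikzf3 was not tested. Gzmb, like Ikzf3, had its lowest mean in CD103 cultures, with overlap between CD103 and CD8a libraries. It stood at 12.9 ± 4.66, 21.3 ± 14.3 and 66.0 ± 14.4 CPM in CD103, CD8a and CD11b cultures. The other called targets, Ccnd2, Il2ra, Il6st and Il7r, had their lowest means in CD8a cultures. The summed DC genes were also lowest, and the mitochondrial share highest, in CD8a cultures, and their part in these calls was not tested.

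Of 29 other zinc finger factors of T cells 28 were tested. In the same order of comparisons limma-trend called 3, 2 and 1 of them, against 1.44%, 0.332% and 1.97% of all genes. At an unadjusted p under 0.05 (limma-trend) were 10, 4 and 4, against 13.2%, 9.32% and 13.6% of all genes. DESeq2 called 4, 3 and 2. This list was also chosen with earlier results known. Between CD103 and CD8a cultures 1 rose, Zbtb7b, and 2 fell, Gfi1 and Klf2. Gfi1, a repressor that limits effector differentiation, had the order of groups seen for Ikzf3. It stood at 22.03, 19.9 and 15.99 CPM in CD103 libraries, 39.2, 38.8 and 41.6 in CD8a libraries and 51.5 and 48.8 in CD11b libraries, with no overlap between any pair of groups. Its log2 difference was -1.11 (SE 0.19, adjusted p = 0.0101, limma-trend) against CD8a cultures and -1.40 (SE 0.21, adjusted p = 0.0127, limma-trend) against CD11b cultures. Klf2, which drives exit from lymphoid tissue, stood at 14.9 ± 2.76 against 30.7 ± 3.83 CPM in CD8a cultures (-1.11, SE 0.23, adjusted p = 0.0307, limma-trend). Zbtb7b, the CD4 lineage factor ThPOK and itself 1 of the 4 markers above, stood at 12.8 ± 2.26 against 2.97 ± 0.643 CPM (2.05, SE 0.42, adjusted p = 0.0282, limma-trend).

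Klf3, a repressor related to Klf2, was lower in CD103 than in CD11b cultures (67.5 ± 8.72 against 144 ± 1.74 CPM, log2 difference -1.11, SE 0.19, adjusted p = 0.0228, limma-trend). Zbtb20 was lower in CD8a than in CD11b cultures (147 ± 58.8 against 363 ± 19.8 CPM, -1.35, SE 0.27, adjusted p = 0.0193, limma-trend). The counts for this list were thus 1 higher and 2 lower, 0 higher and 2 lower, and 0 higher and 1 lower in the 3 comparisons. List medians were 0.04, 0.00 and -0.24. Over all 99 list genes tested, 6, 3 and 5 were called in the 3 comparisons.

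The libraries of the groups compared did not overlap for any of these 14 calls. Leaving out a library therefore could not change the sign of a difference, and the kept signs are no check. The calls themselves did not hold. Each was lost without CD11b replicate 2 and without CD11b replicate 3, where the adjusted p of the calls ran from 0.0807 to 0.565 in limma-trend. Those fits called 0 to 3 genes of all tested, also between CD103 and CD8a cultures, whose libraries were all kept. Ccnd2 then still differed by 0.80 between CD103 and CD8a cultures, as with all libraries. In the comparison CD103 against CD8a, Il6st, Il2ra, Zbtb7b and Klf2 were also lost without any 1 of the CD103 libraries or CD8a replicate 1. Over the left-out libraries the smallest log2 differences of these 4 genes were 0.47, 1.51, 1.85 and -1.01. Gfi1 was lost there without CD103 replicate 2 or 3, and ran from -1.23 to -0.99 over the left-out libraries. In the comparison CD103 against CD11b, Gzmb, Gfi1 and Klf3 were lost without any 1 of the CD103 libraries. Their left-out ranges were -2.66 to -2.17, -1.51 to -1.27 and -1.20 to -0.99. In the comparison CD8a against CD11b, Il7r and Zbtb20 were lost without CD103 replicate 1 or 2, and Gzmb without any CD103 library or CD8a replicate 1 or 2, with a left-out range of -2.27 to -1.43 for Gzmb. With only the libraries of the 2 groups compared, the 5 calls between CD8a and CD11b cultures were lost as well. The call of Gzmb between these cultures was also lost by edgeR, with a pseudocount of 0.5 or 5 and with no filter on low values.

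**Figure D5:**
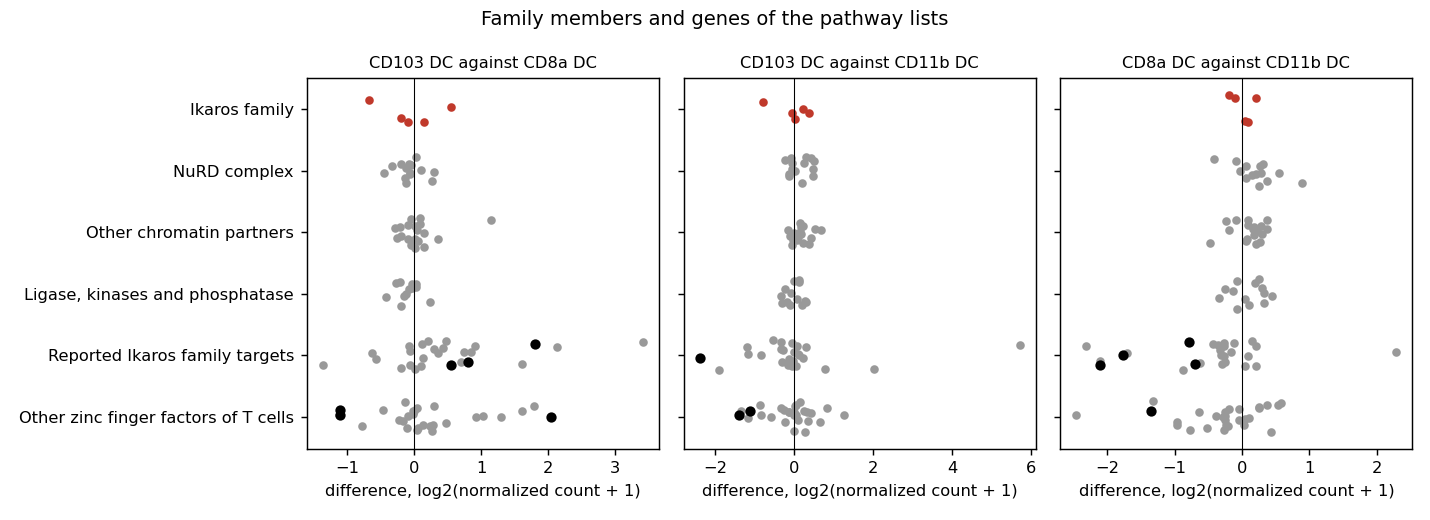
Differences of group means of log2(normalized count + 1) (horizontal axes) for the family (red) and the genes of each list (grey, black where the adjusted p is under 0.05) in the 3 comparisons; vertical scatter within a list only separates points. The black points lie in the lists of reported targets and other zinc finger factors, and the family is drawn without a call.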

How the data were processed

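RNA of 8 libraries was sequenced by the submitters. STAR 2.4.2a, DESeq2 (version not given) and genome build GRCm38 were used, per the submitters' processing notes. The sources used here do not name the read counter, annotation release or strand setting. Normalized counts (a signal) and values headed "stabilized", on a log2-like scale, were deposited for each library, per the file headers. Per the file headers the table also holds the comparisons of the authors, with a ratio (fold change), its log2, and a raw and adjusted p-value. GC percent of genes and the stabilized values, both deposited, were not used. Gene spans are those of the deposited table, 1-based on GRCm38, and were the same in GENCODE M21 for all 5 members.

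Low values were whole multiples of 1 step per library (100% whole within 0.1), so reads and CPM (reads scaled to the library total) could be recovered. limma-trend (limma 3.58.1, R 4.3.3) was fitted to log2(normalized count + 1) for the 18971 genes whose normalized counts averaged at least 1. The fit held 8 libraries, 3 group means and 5 residual degrees of freedom. Differences on this scale understate changes of low genes. On the recovered reads edgeR 4.0.16 called 254, 63 and 365 genes, in the order CD103 against CD8a, CD103 against CD11b and CD8a against CD11b. DESeq2 1.42.0 and limma-voom were further alternatives. Of these steps only the limma-trend fit was run on simulated counts, with differences planted in the CD103 group.

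The members and lists were chosen with earlier results of these data known. Genes were named by rule: all members, up to 4 called genes per list and comparison with the smallest adjusted p, abundant genes of lists without calls, the 3 genes of highest r to each member (means of at least 100 counts), and overlapping or nearest genes (means of at least 10 for the nearest). Libraries of equal replicate number did not deviate together. No pair of libraries agreed within sampling noise.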

Additional observations from a re-analysis of the deposited data

How the results depend on the processing

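Among 285 values of the members' differences under 19 alternatives, all stayed within 1 SD of the reported value. This SD was that of the gene's libraries within groups, on the log2 scale and averaged over the groups. Leaving out a CD103 or CD8a library cannot move a difference beyond it, so those fits were no check of stability. Ikzf4 between CD103 and CD8a cultures ran from 0.17 to 0.92 within this limit. The sign changed in 12 of the 285 values, in 5 of the 15 differences, none of them of Ikzf1 or Ikzf3. Groups did not overlap for Ikzf3 in any comparison, nor for Ikzf1 in those with CD103 cultures. Left-out fits could not change the sign there, so they were no check of it. The counts of genes called depended on the tool and the libraries. With all 8 libraries 273, 63 and 374 genes were called for CD103 against CD8a, CD103 against CD11b and CD8a against CD11b. DESeq2 called 781, 336 and 906. Fits of only the 2 groups compared called 181, 340 and 81. With no filter on low values the first count was 159. Leaving out 1 library gave 3 to 480, 0 to 238 and 0 to 537, with 0 in the last comparison without either CD11b library (1689 and 1810 genes at an unadjusted p under 0.05). Leaving an arm with 1 library assumes that it varies like the others. Of the listed genes 6, 3 and 5 were called. DESeq2 called 11, 7 and 10, scaling to library totals 10 in the first comparison, and fits of 2 groups 7 in the second and 0 in the third. Left-out libraries gave 0 to 14, 0 to 7 and 0 to 6. Higher and lower calls of 169 and 104, 25 and 38, and 203 and 171 became 210 and 74, 26 and 40, and 166 and 215 with library totals. The cause was not tested.

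The replicate block gave 181, 49 and 279 calls. Under it Il6st, Klf2, Fignl1 (CD103 against CD8a), Sirpa (CD103 against CD11b) and Gzmb were no longer called. Equal numbers share only a number here: 7 pairs had correlations of deviations of -0.0928 to 0.0361. Depth limits Ikzf5 most, at 285 to 546 reads per library.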
